A study of Rattus norvegicus with 26 samples.

Results

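The livers of rats at 12 h after 1/3 partial hepatectomy (PH) were compared with normal rat livers, in 3 animals each, for the mature microRNAs (miRNAs) that a microarray could detect. A miRNA was included if the scanner software detected it in all 3 livers of either group, which left 128 of the 677 miRNAs on the array. Of the 128, 87 were detected on all 6 arrays, 40 passed only through the normal arrays, and 1 (miR-429) passed only through the 1/3 PH arrays. Of the 40, 2 were detected on no array after 1/3 PH. The study as a whole covered 26 arrays in 9 groups, with livers at 6, 12, 24 and 36 h after 1/3 or 2/3 PH beside the normal livers, and asked how the size of the resection shapes the miRNA response.

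All animals were male Sprague-Dawley rats, with no genetic change, and their age was not given in the sources used here. For 1/3 PH the left lateral lobe, 30% of the liver mass, was removed, and the right lobe was taken 12 h later. The normal group was the right lobe of 3 rats that had no resection. Its titles read normal 1, normal 2 and normal 3, while its protocol label reads sham, so whether these rats had their abdomen opened was not settled, and effects of surgery as such cannot be told apart from those of the lost tissue. Each liver was 1 array, and the 1/3 PH arrays are named m2, m5m and m6 after their titles.

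MicroRNAs are short RNAs that guide Argonaute proteins to messenger RNAs and lower their translation or stability. Bases 2 to 8 of the miRNA, the seed, pair with the target, so miRNAs with the same seed form a family with overlapping targets. After partial hepatectomy, hepatocytes that had been at rest enter the cell cycle within the first day, and how many do so depends on how much tissue was removed. In liver, miR-122 and miR-192 mark hepatocytes, members of the miR-200 family mark the epithelium of the bile ducts, and miR-142 marks cells of the blood lineages.

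The mature sequences of 6 of the miRNAs named below are shown 5′ to 3′, with the seed in capitals. Not all miRNAs that passed the test are among them, and those of miR-200b and miR-429 were not found in the reference used. They were taken from RefSeq on the rat assembly GRCr8, where 15 of the 18 members looked up had a mature sequence. The 3 members of the miR-29 family come first because all 3 share 1 seed.
rno-miR-29a: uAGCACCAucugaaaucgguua
rno-miR-29b: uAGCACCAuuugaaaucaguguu
rno-miR-29c: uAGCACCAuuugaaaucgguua
rno-miR-192: cUGACCUAugaauugacagcc
rno-miR-142-3p: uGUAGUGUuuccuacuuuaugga
rno-miR-34a: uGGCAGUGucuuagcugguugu

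Counted from 1 at the 5′ end, miR-29a differed from miR-29c by U10C alone, and miR-29b differed from it by G18A, U21G and A22U and by 1 further base at its end. Cross-hybridization between such close sequences was not tested. The miR-29a gene lies at chr4:60617968-60617989 on the minus strand and Mir29b1 at chr4:60618342-60618364, with 291 bases between their hairpins. On chromosome 13, Mir29b2 lies at chr13:109098882-109098904 and Mir29c at chr13:109099412-109099433, both on the plus strand. Both Mir29b genes give the same mature miR-29b, so the array could not tell which locus the signal came from. Mir192 lies at chr1:212994232-212994252, next to Mir194-2, Mir142 at chr10:73055155-73055177 and Mir34a at chr5:165815971-165815992, all on the plus strand. The coordinates are those of the mature miRNAs.

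The array m5m stood apart from the others. Summed over miRNAs, it gave 12434.5 signal units, whereas the others gave between 39148.8 and 68366.3, and 91 miRNAs were detected on it, with 118 or more on each other array. The labelling spike-in read 615 signal units on m5m and 1721 to 3292 elsewhere, while the hybridization spike-in, 11177 units, lay within the range of the other arrays (6769 to 11686). Each array was scaled to the others by bright probes, and a signal too low to be told from background was set to the lowest reliable signal of its array, here called the floor. After scaling the floor was 24.3 units on m5m and 6.36 to 13.6 units on the other 5 arrays compared here. As a result 47 of the 128 miRNAs sat at the floor on m5m, and 39 were not detected on it. For 34 of the 47, including m5m raised the difference from normal. Over the 128 miRNAs, m2 and m6 differed from each other by a median of 0.15 on the log2 scale, and m5m differed from m2 by 0.54 and from m6 by 0.54. Results are therefore given with m5m and, after scaling and filtering again, without it. Since the array measures total liver RNA, fewer cells of a type and less of a miRNA per cell cannot be told apart.

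With all arrays, 6 miRNAs differed between 12 h after 1/3 PH and normal liver at an adjusted p under 0.05 in limma, which is 4.17% of the miRNAs tested in the fit of all 26 arrays. The miRNAs miR-29b, miR-29c, miR-192 and miR-378 fell (2.78%), and miR-200b and miR-429 rose (1.39%). At an unadjusted p under 0.05 there were 38 (26.4%), of which 23 were higher and 15 lower, and m5m was at its floor for 12 of the 23. Without m5m, 13 miRNAs passed (9.03%), with 11 lower (7.64%) and 2 higher. Of the 6, 5 were among these 13, and miR-429 no longer passed. The other 8 were miR-22, miR-28, miR-142-3p, miR-148b-3p, miR-151, miR-338 and miR-378*, all lower, and miR-34a, which was higher. Of these, miR-338 entered the fit only through the normal livers. When m5m was dropped but the scaling and the list of miRNAs were kept, 6 passed. The count also turned on other arrays, with 12 calls without normal 1, 1 without normal 2, none without normal 3 (25 at an unadjusted p under 0.05) and 13 without m6. All 6 calls ended with slide as a fixed block, with normexp background correction and in a fit of the 6 arrays alone, each of which called 0 in limma (34, 10 and 16 at an unadjusted p under 0.05). None of the 6 passed without normal 3, where their adjusted p in limma was 0.058 for all but miR-429 (0.19). Without normal 2, miR-200b was the 1 that passed. Besides, miR-378 did not pass without normal 1 (adjusted p = 0.0655), m2 (0.0740) or m6 (0.0537), and miR-429 did not pass without m2 (0.0678) or m6 (0.0501). The balance of directions moved with the scaling, from 2 higher and 4 lower to 0 higher and 8 lower without scaling, 0 and 14 with the 75th percentile over all probes, and 2 and 8 with quantile normalization.

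**Figure D1:**
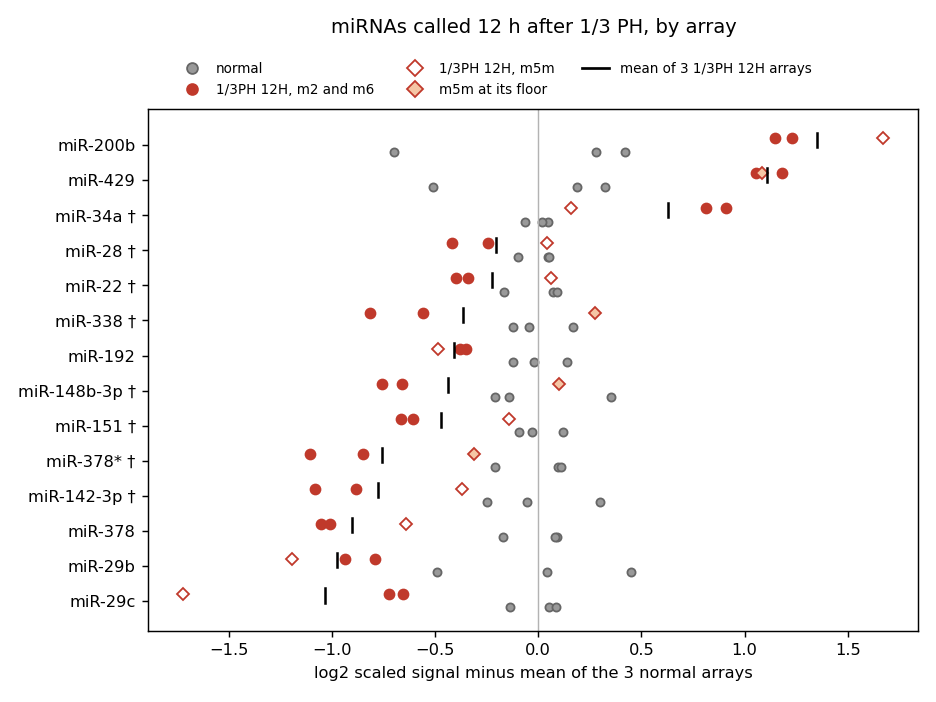
Each row is 1 of the 14 miRNAs called with all arrays or without m5m, the latter marked with a dagger, and the horizontal axis is the log2 scaled signal of an array minus the mean of the 3 normal arrays. Grey points are normal arrays, red points m2 and m6, diamonds m5m (filled where m5m is at its floor), and black bars the mean of the 3 arrays at 12 h after 1/3 PH. In 11 rows m2 and m6 lie to the left of the normal arrays and in 3 to the right, while m5m lies nearer to zero than m2 and m6 for the 8 rows with a dagger. For miR-338 m2 is also at its floor, and for miR-429 normal 3.

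By size, 46.9% of the 128 miRNAs lay outside 0.8-fold to 1.2-fold of normal, with 37 (28.9%) above and 23 (18%) below. Taken 1 array at a time against the normal mean, the share was 41.4% for m2, 49.2% for m5m and 46.9% for m6 (SD 4.01, n = 3). The limits cut through a continuous range. The nearest miRNAs on either side of the lower limit were at 0.797-fold and 0.814-fold, and those beside the upper limit at 1.199-fold and 1.202-fold. The floor of m5m was involved in 19 of the 37 increases and 5 of the 23 decreases. Without m5m, and with the miRNAs filtered again, the share was 46.04% of 139, with 40 above and 24 below. Among the 87 miRNAs detected on all 6 arrays, the share was 42.5%, split into 19 above and 18 below, and it was 35.6% without m5m. Leaving out m5m thus lowered the share among these 87, while the share over all miRNAs included hardly moved. The 2 groups did not overlap for 31 of the 128 (24.2%), 17 higher and 14 lower, and 5 of the 17 had m5m at its floor. Of the 31, 22 were detected on all 6 arrays. Among the 14 lower, m5m was at its floor for some, such as miR-378*, miR-101a and miR-150. These passed the filter only through the normal arrays, where they were higher. Without m5m they did not overlap for 56 of 139 (40.3%). Fewer arrays are separated more easily, and the miRNAs included differ, so this share cannot be set directly against 24.2%. The sign of the difference was the same with and without m5m for 100 of the 128.

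**Figure D2:**
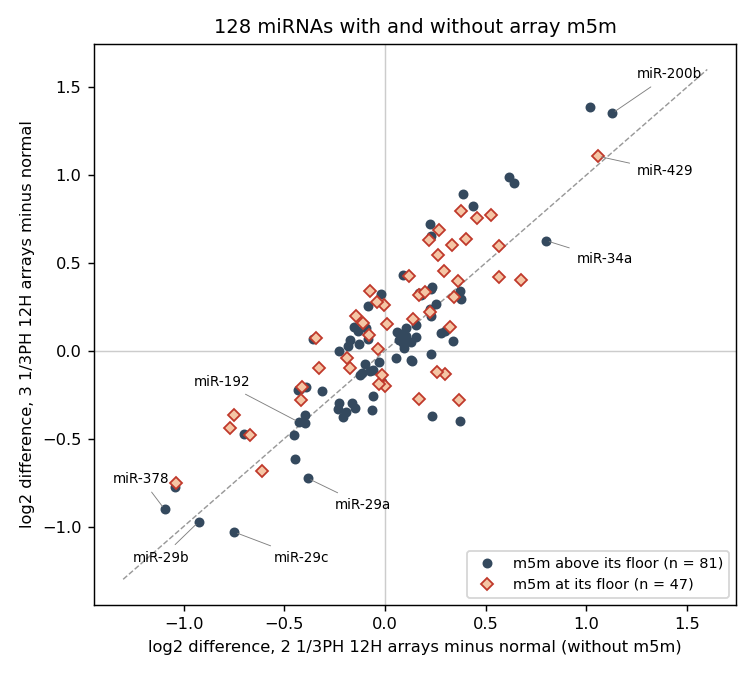
Each point is 1 of the 128 miRNAs, with the log2 difference from normal liver computed without m5m on the horizontal axis and with all 3 arrays on the vertical axis. Diamonds are the 47 miRNAs at the floor on m5m and circles the other 81. Most diamonds lie above the dashed line of equality, and the called miRNAs lie at both ends.

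The miR-29 family was lower at 12 h after 1/3 PH in all 3 of its members, and miR-29b and miR-29c fell by the test. These miRNAs are known to repress collagens and other matrix genes and the DNA methyltransferases Dnmt3a and Dnmt3b. The miR-29c signal was 289.9, 329.6 and 337 scaled units in normal 1 to 3 and 193, 96.7 and 202 units in m2, m5m and m6. All 3 values after 1/3 PH lay below the lowest normal liver, and m5m was the lowest. The fall of miR-29c was 0.489-fold (log2 difference −1.03, SE 0.236, adjusted p = 0.0117 in limma) with m5m and 0.595-fold (−0.75, SE 0.199, adjusted p = 0.0291) without it.

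For miR-29b the normal livers read 196, 377 and 284 units, and m2, m5m and m6 read 144.02, 121 and 159.8 units. The normal livers differed among themselves more than those after 1/3 PH did, but the groups did not overlap. The fold was 0.509 (log2 difference −0.97, SE 0.210, adjusted p = 0.0117) with m5m and 0.527 (−0.93, SE 0.229, adjusted p = 0.0202) without it. For miR-29a the normal livers read 1246, 1064 and 1169 units against 911, 400.7 and 940.1 units in m2, m5m and m6. Although the groups did not overlap, m5m was far below m2 and m6, and the difference did not pass the test with m5m (0.605-fold, log2 −0.72, SE 0.227, adjusted p = 0.0564) or without it (0.766-fold, log2 −0.38, SE 0.148, adjusted p = 0.142). The summed signal of the 3 members ranged from 1732 to 1791 units in normal livers and from 618 units (m5m) to 1302 units after 1/3 PH. All 3 members were lower under each of the 8 alternative scalings, background corrections and signal tables tried. Without scaling and with the 75th percentile over all probes, most miRNAs tested were lower, with median log2 differences of −0.65 and −0.95. A lower value in those settings therefore says little by itself. In each of the 8 alternatives, all 3 members also lay below the median of all miRNAs tested. Without scaling, with the percentile over all probes and with total signal, however, all miRNAs move by the same amount. Their position against the median was then fixed in advance, so those settings add nothing on this point.

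Of the 5 miRNAs of the miR-200 family, miR-200b rose at 12 h after 1/3 PH with and without m5m, miR-429 passed the test only with m5m, miR-200a did not pass, and miR-200c and miR-141 were detected on none of the 6 arrays. These miRNAs repress Zeb1 and Zeb2 and help to keep cells epithelial. The miR-200b signal was 39.8, 36.1 and 18.3 units in normal 1 to 3 and 65.9, 94.8 and 69.8 units in m2, m5m and m6. Every liver after 1/3 PH was above every normal liver, and normal 3 was the lowest of all. The increase was 2.55-fold (log2 difference 1.35, SE 0.285, adjusted p = 0.0117) with m5m and 2.19-fold (1.13, SE 0.320, adjusted p = 0.0365) without it.

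The miR-429 signal was 14.3, 13.0 and 8.03 units in the normal livers, with the last at the floor and not detected, and 23.8, 24.3 and 25.9 units in m2, m5m and m6. The value of m5m is its floor, so it carries no measured level of miR-429 beyond that bound, although the software called it detected. This miRNA was included only through the arrays after 1/3 PH, where it was higher, so its direction is not separate evidence on the family. The fold was 2.15 (log2 difference 1.11, SE 0.292, adjusted p = 0.0334) with m5m and 2.08 (1.06, SE 0.345, adjusted p = 0.0693) without it. The third member, miR-200a, was dim, at 11.1, 14.6 and 8.03 units in normal livers and 15.3, 24.3 and 17.6 units in m2, m5m and m6, where normal 1, normal 3 and m5m were at their floors and m5m was not detected. Its fitted log2 difference of 0.78 (SE 0.297, adjusted p = 0.106) rests on these floors and did not pass the test, and without m5m it was 0.52 (adjusted p = 0.471). In the RefSeq gene table, Mir200a, Mir200b and Mir429 all lie on chromosome 5, with Mir200a beside Mir200b. The 3 measured members were higher under 6 of the 8 alternatives. With normexp background correction most miRNAs tested were higher, with a median log2 difference of 0.56, so a higher value there says little by itself. With the 75th percentile over all probes, and in the deposited table of log2 values, 2 were higher and 1 lower.

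Among miRNAs rich in hepatocytes, miR-192 and miR-378 fell. For miR-192, which hepatocytes express at a high level, the normal livers read 1349.5, 1618 and 1450.1 units, and m2, m5m and m6 read 1129, 1048 and 1151 units. The 3 values after 1/3 PH lay within a narrow range below the lowest normal liver. The fold was 0.755 (log2 difference −0.41, SE 0.091, adjusted p = 0.0117) with m5m and 0.743 (−0.43, SE 0.089, adjusted p = 0.0202) without it, the smallest difference among the 6. Its neighbour miR-194, which also has a second gene on another chromosome, read 283, 290.5 and 290.1 units in normal livers and 334.5, 256 and 307 units in m2, m5m and m6 (log2 difference 0.05, SE 0.123, adjusted p = 0.849). The difference between these 2 miRNAs was not tested.

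The miR-378 signal was 172, 170.8 and 143.8 units in normal livers and 80.3, 104 and 77.8 units in m2, m5m and m6. This miRNA is encoded within Ppargc1b, a coactivator gene of oxidative metabolism. All 3 values after 1/3 PH were below the normal range, and m5m was the nearest to it. The fold was 0.535 (log2 difference −0.90, SE 0.242, adjusted p = 0.0334) with m5m and 0.468 (−1.09, SE 0.257, adjusted p = 0.0202) without it. The other arm of the same hairpin, miR-378*, read 32.2, 32.5 and 26.1 units in normal livers and 16.7, 24.3 and 14.0 units in m2, m5m and m6, with m5m at its floor. It did not pass the test with m5m (0.593-fold, adjusted p = 0.0564) and fell without it (0.487-fold, log2 −1.04, SE 0.238, adjusted p = 0.0202).

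Over the 12 measured miRNAs of the hepatocyte-rich list, 8 were lower and 4 higher, and 2 were called with m5m, beside 4.17% of all miRNAs tested. Quantile normalization gave 7 lower and 4 higher, normexp 6 and 6, and no scaling 12 lower. These counts moved with the scaling, as the median log2 difference over all miRNAs tested was −0.05, 0.56 and −0.65 in the same order. Below that median lay 6 of the 12 with quantile normalization, 12 with normexp and 10 without scaling. Leaving out the scaling moves all miRNAs alike, so the last count could only repeat that of the scaling used here. Under the scaling used here the median log2 difference of the 12 was −0.22, beside 0.07 over all 128 miRNAs. The list is wider than the 3 hepatocyte markers in it, miR-122, miR-192 and miR-194. Of these, 2 were higher and 1 lower under the same scaling, with a median of 0.05. Without m5m, 10 of the 12 were lower and 3 were called, beside 9.03% of all miRNAs tested, with a median of −0.39 beside 0.06 over the 128. The list holds miR-122, the main hepatocyte miRNA, at 40474, 33389.8 and 38645 units in normal livers and 40287, 38642 and 43689.8 units in m2, m5m and m6, with overlapping groups and no call (log2 0.13, adjusted p = 0.510). It also holds miR-22 at 2987, 2529.8 and 3028 units in normal livers and 2155, 2959.8 and 2242 units in m2, m5m and m6. The m5m value lay inside the normal range and the others below it, and miR-22 passed without m5m (0.742-fold, log2 −0.43, SE 0.129, adjusted p = 0.0408) but not with it (0.855-fold, adjusted p = 0.271).

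A further 5 miRNAs fell and miR-34a rose when m5m was left out. The largest of the decreases was that of miR-142-3p, which cells of the blood lineages express, with 48.1, 70.4 and 55.1 units in normal livers and 30.9998, 44.3 and 27.02 units in m2, m5m and m6. All 3 livers after 1/3 PH were below the normal ones. Its fold was 0.485 without m5m (log2 −1.04, SE 0.281, adjusted p = 0.0291) and 0.584 with it (adjusted p = 0.0804). The increase was that of miR-34a, a transcriptional target of p53 that slows the cell cycle, with 49.8, 53.7 and 52.7 units in normal livers and 91.3, 58.2 and 97.8 units in m2, m5m and m6. Here m2 and m6 were well above the normal livers and m5m only just above them. Its fold was 1.74 without m5m (log2 0.80, SE 0.233, adjusted p = 0.0365) and 1.54 with it (adjusted p = 0.0804).

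In the remaining 4, m5m lay nearer to the normal livers than m2 and m6 did. It was just below the normal range for miR-151, inside it for miR-28, and at its floor for miR-338 and miR-148b-3p. For miR-151, encoded within the focal adhesion kinase gene Ptk2, the normal livers read 152.8, 137.6 and 131.9 units and m2, m5m and m6 read 92.2, 127 and 88.7 units. Its fold was 0.616 without m5m (adjusted p = 0.0202) and 0.721 with it (adjusted p = 0.116). For miR-28, encoded within Lpp, m2 and m6 read 35.5 and 31.4 units against 39.2 to 43.4 units in normal livers, and m5m read 43.2 units (0.762-fold without m5m, adjusted p = 0.0202, and 0.867-fold with it, adjusted p = 0.249). For miR-338, encoded within Aatk, m6 read 11.4 units against 18.4 to 22.5 units in normal livers, while m2 and m5m were at their floors of 13.6 and 24.3 units and carry only a bound. The miRNA was detected on 1 of the 3 arrays after 1/3 PH and entered the fit only through the normal livers, where it was highest, so that a lower level elsewhere was in part set by the filter. The adjusted p was 0.0365 without m5m and 0.328 with it, and no fold is given. For miR-148b-3p, of the miR-148 and miR-152 family, m2 and m6 read 14.4 and 13.4 units against 19.6 to 28.9 units, with m5m at the same floor (0.586-fold without m5m, adjusted p = 0.0365, and 0.738-fold with it, adjusted p = 0.249).

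A further 9 miRNAs are named for the size of their difference among those detected on all 6 arrays with no overlap and include miR-29a, described above. None of the 9 passed the test with or without m5m. On the lower side, miR-19b of the miR-17-92 cluster read 439.9, 564 and 581 units in normal livers and 373, 248 and 432 units in m2, m5m and m6 (0.652-fold, adjusted p = 0.0564). Similarly, miR-30e, encoded within Nfyc, read 69.5, 87.6 and 87.1 units in normal livers and 63.1, 54.8 and 65.2 units in m2, m5m and m6 (0.752-fold, adjusted p = 0.0564). In both, the lowest liver was m5m.

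On the higher side, m5m was the highest liver for 5 of the 6. For miR-702-3p the normal livers read 18.5, 11.2 and 19.3 units and m2, m5m and m6 read 21.97, 48.4 and 29.3 units (1.98-fold, adjusted p = 0.326). For miR-3085 the values were 22.0, 18.9 and 22.6 units against 26.9, 72.0 and 30.99 units (1.85-fold, adjusted p = 0.118). For miR-2985 they were 34.6, 16.6 and 30.9 units against 37.1, 72.4 and 36.5 units (1.77-fold, adjusted p = 0.305). In these 3, m2 and m6 were close to the normal livers, and without m5m the folds were 1.53, 1.31 and 1.35. For miR-335, encoded within Mest, the normal livers read 11.1, 22.0 and 19.7 units against 24.2, 24.3 and 28.1 units, with m5m at its floor (1.51-fold, adjusted p = 0.122). For miR-1224 the normal livers read 256, 190.1 and 202 units against 267, 304 and 259 units (1.29-fold, adjusted p = 0.170). For miR-23b, of the miR-23b, miR-27b and miR-24 cluster, they read 519, 527 and 451 units against 611, 715 and 558 units (1.26-fold, adjusted p = 0.114). The 12 other miRNAs without overlap are not described singly.

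The other miRNA families held no call with all arrays, and the 128 miRNAs had a median log2 difference of 0.07. Directions here depend on the scaling. The median over all miRNAs tested was 0.10, but −0.65 without scaling, −0.95 with the 75th percentile over all probes and 0.56 with normexp background correction. Without scaling, and with the percentile over all probes, every measured member of each list other than miR-200 was lower. All 8 measured members of let-7, a family that holds back growth genes such as Hmga2 and Lin28, were higher, with log2 differences from 0.05 to 0.35 and a median of 0.15 (0.16 without m5m). This direction held for total signal scaling, the software's own gene signal and a floor of 1 unit, but only 6 were higher with quantile normalization and in the deposited table, 4 with normexp background correction, and none without scaling or with the 75th percentile over all probes. Of the 5 measured members of miR-30, 3 were lower with m5m and 5 without it (median −0.23 in both). The 5 of miR-15/16, which repress cyclins, had a median of 0.02, with 3 higher. The 9 of the miR-17-92 and related clusters, which drive proliferation in many tissues, had a median of −0.05 with 3 higher, and without m5m a median of 0.09 with 6 higher. The 5 of miR-23/27/24 had a median of 0.04 and the 5 of the miR-10, miR-99, miR-100 and miR-125 families a median of 0.29. The medians of the miR-26 list (2 members) and of the list of miR-130, miR-301, miR-148 and miR-152 (3 members) were −0.09 and 0.15. In the stress and hypoxia list (4 members, median −0.07) and the miR-34 list, miR-34a was the only call, and that without m5m. The single measured member of miR-181 had a difference of −0.04, and miR-221 and miR-222 did not enter the 128.

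**Figure D3:**
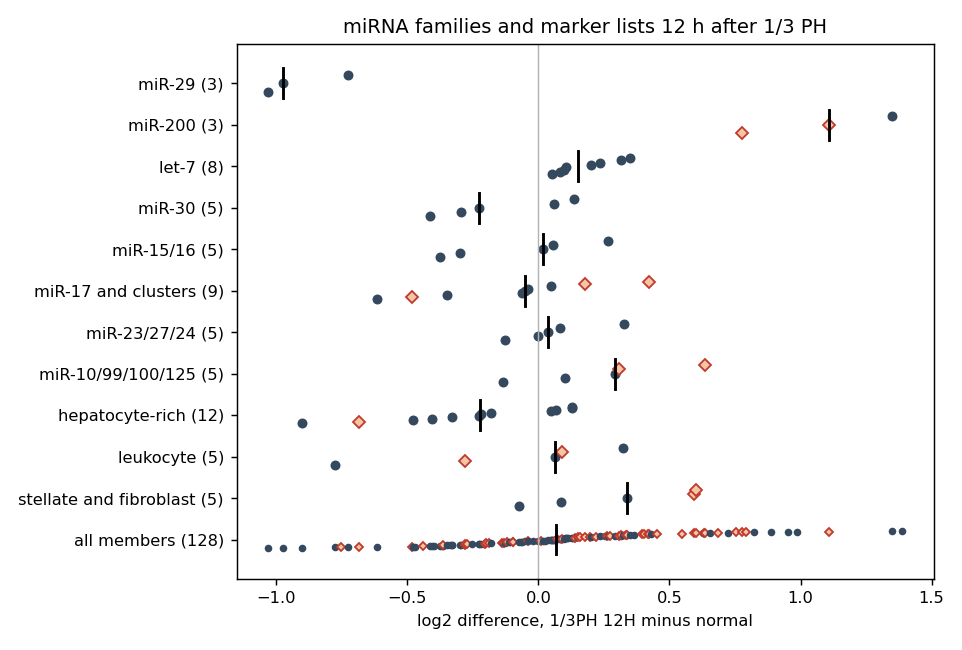
Each point is 1 miRNA of the list named on the left, with the number of its members among the 128 in brackets, and the horizontal axis is its log2 difference between 12 h after 1/3 PH and normal liver. Diamonds are miRNAs at the floor on m5m and bars are medians, all under the scaling used here. All 3 miR-29 members lie below −0.7 and all 3 miR-200 members above 0.7, while the medians of the other lists shown lie between −0.23 and 0.34. Of the miR-200 members, miR-429 was included only through the arrays after 1/3 PH. Both miR-429 and miR-200a are at the floor on m5m.

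The hepatocyte markers miR-122, miR-192 and miR-194 were detected on all 6 arrays, and 9 miRNAs of muscle, brain or pancreas were detected on none. Of the 8 leukocyte markers on the array, 5 were among the 128, 3 were detected on none of the 6 arrays (miR-142-5p, miR-146b and miR-342-5p), and their summed signal was 227 to 276 units in normal livers and 218.2 to 240.1 units after 1/3 PH. Within this list miR-142-3p was lower, while miR-223, a marker of neutrophils and monocytes, read 66.95, 72.6 and 58.6 units in normal livers and 57.9, 121 and 79.1 units in m2, m5m and m6, and miR-146a had a log2 difference of 0.06. The list had 3 members higher and 2 lower with m5m, and 1 higher and 4 lower without it. The red cell marker miR-451 was at 91.6 to 109.6 units in normal livers and 63.3 to 97.5 units after 1/3 PH, and miR-144 was detected on none. The endothelial markers miR-126 and miR-126* summed to 561 to 683 units in normal livers and 352 (m5m) to 608 units after 1/3 PH. The stellate cell, fibroblast and smooth muscle markers summed to 295 to 365 units in normal livers and 298 to 400.5 units after 1/3 PH, with 4 of 5 higher and none called, and miR-145 and miR-218 detected on none of the 6 arrays. The bile duct markers are the miR-200 family itself, whose summed signal was 26.3 to 65.3 units in normal livers and 104.95 to 119 units after 1/3 PH. Only detected values were summed. The highest sum is that of m5m, where miR-429 is at its floor and carries only a bound. In addition, miR-429 was included only through the arrays after 1/3 PH, where it was higher. The part of cell composition in these results was not tested.

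Slides and scan days were shared between the groups only in part. Normal 1 and m2 were on the same slide and scanned on the same day, and normal 2 and m5m shared another slide and day. Normal 3 and m6 each shared a slide with arrays of other groups only, and with none of the arrays compared here. The scan day of m6 was that of normal 1 and m2. On the first slide the difference of m2 from normal 1 had the sign of the group difference for 23 of the 23 named miRNAs, with log2 −0.45 for miR-29b, −0.59 for miR-29c, −0.26 for miR-192, −1.10 for miR-378, 0.73 for miR-200b and 0.73 for miR-429. On the second slide, m5m against normal 2, it had that sign for 21 of 23, all but miR-22 and miR-338, with log2 −1.64 for miR-29b, −1.77 for miR-29c, −0.63 for miR-192, −0.72 for miR-378, 1.39 for miR-200b and 0.90 for miR-429. On the first scan day, m2 and m6 against normal 1, the values were −0.37, −0.55, −0.24, −1.12, 0.77 and 0.79 in the same order. For each named miRNA m2 and m6 both lay beyond the normal range on the side of the group difference. The signs on the first slide and day therefore had to match. On the second slide the same holds wherever the groups did not overlap. These signs are no separate support for the differences. With slide as a fixed block in limma, 0 miRNAs passed (34 at an unadjusted p under 0.05), with adjusted p from 0.070 for miR-192 to 0.157 for miR-429, although the differences kept their sign, at −0.97 for miR-29b, −1.05 for miR-29c, −0.44 for miR-192, −0.95 for miR-378, 0.97 for miR-200b and 0.81 for miR-429. Over all alternatives the adjusted p ranged from 0.00272 to 0.374 for miR-192, 0.00342 to 0.636 for miR-200b, 0.00172 to 0.204 for miR-29b, 0.00497 to 0.220 for miR-29c, 0.0109 to 0.775 for miR-378 and 0.0104 to 0.927 for miR-429. With scan day as a fixed block 7 passed, and with slide as a random block 10.

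The direct comparison with the other groups asks whether the 12 h livers after 1/3 PH differ from those at other times and from those after 2/3 PH at the same time. Groups carry the time of their titles, although for some livers at 24 and 36 h, and after 2/3 PH at 12 h, another label gives a later hour. Against 6 h after 1/3 PH (2 arrays), 0 miRNAs passed (0%, 16 at an unadjusted p under 0.05). The lowest adjusted p of a named miRNA was 0.0662, for miR-200b, which was 1.34 higher on the log2 scale at 12 h (SE 0.319). Without m5m, 3 passed (2.08%), and these were miR-151 (log2 −0.84), miR-378 (−1.18) and miR-378* (−1.07), all lower at 12 h with an adjusted p of 0.0314.

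Against 24 h after 1/3 PH, 5 miRNAs passed (3.47%). Lower at 12 h were miR-29b (log2 difference −0.80, SE 0.210), miR-29c (−0.86, SE 0.236), miR-192 (−0.34, SE 0.091) and miR-106b (−0.58, SE 0.1497), each with an adjusted p of 0.0485, and higher was miR-466b (2.71, SE 0.594, adjusted p = 0.0296). The miR-29b level, 140.6 units (geometric mean, n = 3) at 12 h, was 244 units at 24 h, beside 276 units in normal livers. The count was 2 without m5m (1.39%), 3 without m2, 11 without m6, and none without the first (20 at an unadjusted p under 0.05) or the second (23) array at 24 h. Of the 5, only the miR-192 difference passed in limma without m5m (−0.40, adjusted p = 0.0209). The others did not, with an adjusted p of 0.0687 for miR-29b, 0.0963 for miR-29c, 0.0590 for miR-106b and 0.0687 for miR-466b.

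Against 36 h after 1/3 PH, 12 miRNAs passed (8.33%), with 10 lower and 2 higher at 12 h. All 3 miR-29 members were lower at 12 h, by log2 −0.85 for miR-29a (SE 0.227, adjusted p = 0.0284), −1.11 for miR-29b (SE 0.210, adjusted p = 0.00558) and −1.12 for miR-29c (SE 0.236, adjusted p = 0.00992). These 3 also passed without m5m, at −0.54, −1.10 and −0.87, whereas miR-19b did not (−0.52, adjusted p = 0.101). The others lower at 12 h were miR-192 (−0.38), miR-30e (−0.45), miR-19b (−0.66), miR-101a and miR-101b (−0.72 and −0.64), which repress the histone methyltransferase Ezh2, miR-106b (−0.52) and miR-3559-5p (−0.52), and those higher were miR-466b (2.22) and miR-98 (0.43), a let-7 relative. Without m5m 9 passed (6.25%), all lower, and 6 of the 12 were among them, namely the 3 miR-29 members, miR-192, miR-30e and miR-101b. The count was 6 without the first array at 36 h, 1 without the second and 1 without the third.

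Against 2/3 PH at the same 12 h, 0 miRNAs passed (0%, 9 at an unadjusted p under 0.05, and 0 and 1 without m5m). For miR-29b the difference of 2/3 PH from 1/3 PH was −0.03 on the log2 scale, with a 95% interval from −0.47 to 0.40, for miR-29c 0.14 (−0.36 to 0.63), for miR-192 0.07 (−0.12 to 0.26) and for miR-378 0.15 (−0.35 to 0.66). For miR-200b it was −0.72 (−1.31 to −0.12) and for miR-429 −0.70 (−1.31 to −0.09), with an adjusted p of 0.589 for both. The miR-200b level was 75.9 units 12 h after 1/3 PH and 46.1 units 12 h after 2/3 PH, beside 29.7 units in normal livers. Against the same normal livers, the log2 differences 12 h after 2/3 PH were −1.01 for miR-29b (SE 0.210, adjusted p = 0.0150), −0.89 for miR-29c (SE 0.236, adjusted p = 0.0274), −0.34 for miR-192 (SE 0.091, adjusted p = 0.0274), −0.75 for miR-378 (SE 0.242, adjusted p = 0.0761), 0.63 for miR-200b (SE 0.285, adjusted p = 0.236) and 0.41 for miR-429 (SE 0.292, adjusted p = 0.493). Those values share the 3 normal arrays with the ones after 1/3 PH.

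**Figure D4:**
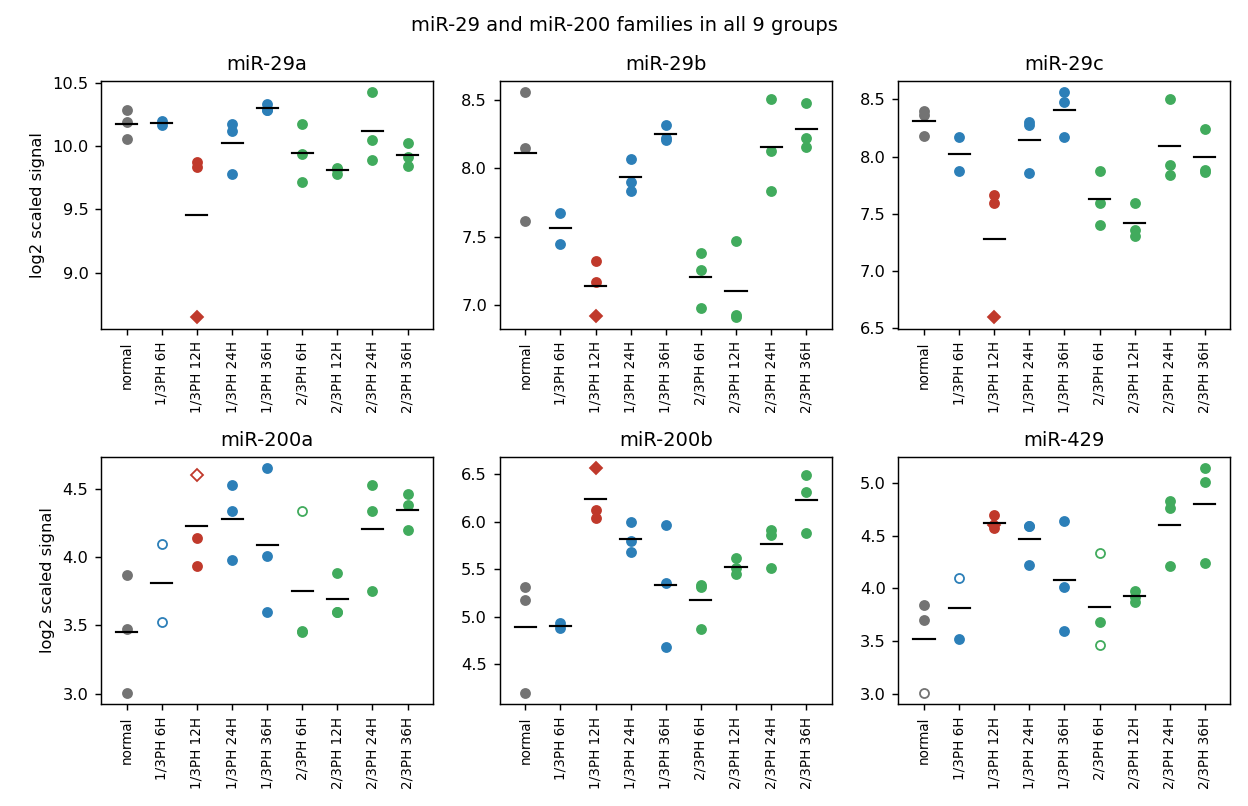
Each panel is 1 miRNA of the miR-29 or miR-200 family, the vertical axis is the log2 scaled signal, and the 9 groups stand along the horizontal axis with 1 point per array and a bar for the group mean. Red marks 12 h after 1/3 PH, the diamond is m5m, and open points are arrays on which the miRNA was not detected. The miR-29b and miR-29c means at 12 h after 1/3 PH lie below those at 24 and 36 h, and the miR-200b mean lies above that of the normal livers.

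Across the 9 groups the order of the miR-29b means, from low to high, began with 12 h after 2/3 PH (137 units), 12 h after 1/3 PH (140.6 units) and 6 h after 2/3 PH (147 units), whose arrays overlapped, followed by 6 h after 1/3 PH (189 units) and 24 h after 1/3 PH (244 units). Normal livers were at 276 units, 24 h after 2/3 PH at 285 units, 36 h after 1/3 PH at 304 units and 36 h after 2/3 PH at 312 units. For miR-200b the highest means were those at 12 h after 1/3 PH (75.9 units) and 36 h after 2/3 PH (75.1 units), which overlapped, and the lowest were normal livers (29.7 units) and 6 h after 1/3 PH (29.9 units). For miR-34a the mean at 12 h after 1/3 PH, 80.4 units, stood between those of 6 h (65.8 units) and 24 h (99.8 units) after the same operation, with overlap of arrays on both sides when m5m was included.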

How the data were processed

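Total RNA from 26 rat livers was labelled with Cy3 and hybridized to 1-colour Agilent rat miRNA arrays, 1 rat per array. The deposited scanner files hold spot intensity values that Feature Extraction 10.7.3.1 had made, with no normalization between arrays, and the series table deposited by the authors holds log2 values whose normalization is not given in the sources used here. That table was used only as an alternative, in which 699 features have values and the lowest correlation with the signals used here was 0.846.

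The spots of each probe were averaged (5 to 20 spots) and the 1 to 4 probes of a miRNA summed. Each array was scaled to its 75th percentile over the 109 probes detected on all arrays (122 without m5m), signals were then raised to the lowest reliable signal of the array, and log2 was taken. All miRNAs that were detected throughout any of the 9 groups were fitted together with limma 3.58.1 in R 4.3.3 (lmFit and eBayes), with Benjamini-Hochberg adjustment over them and a threshold of 0.05. The fit was also run on simulated data with independent noise. Those data had no low-signal array, floor or slide effect, so the run cannot speak to these features. Alternatives covered scaling, background correction, the filter, the floor, slide and scan day as blocks, array weights, the samples fitted and each array left out.

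MiRNAs were named if called with or without m5m, or if among the 8 largest increases or 8 largest decreases of those detected on all 6 arrays without overlap, or, up to 4 each way, if detected on no array of 1 group, for which no usable bound was found. The members and lists were chosen with earlier results of these data known. With 3 animals in a group, the number of arrays limits the precision.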

Additional observations from a re-analysis of the deposited data

Results flagged for a closer look

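At 12 h after 1/3 PH several miRNAs differed from later times after the same operation by the direct test in limma. Against 24 h the log2 difference was −0.34 for miR-192, −0.80 for miR-29b and −0.86 for miR-29c. Against 36 h it was −0.38 for miR-192, −0.66 for miR-19b, −0.85 for miR-29a, −1.11 for miR-29b, −1.12 for miR-29c and −0.45 for miR-30e. Without m5m, miR-29b (adjusted p = 0.0687) and miR-29c (0.0963) against 24 h and miR-19b (0.101) against 36 h no longer passed in limma, and the other differences did. Groups of 3 arrays were not tested for single outlying arrays.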

How the results depend on the processing

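The count of miRNAs called against normal liver, 6, became 8 without scaling, 14 with the 75th percentile over all probes, 10 with quantile normalization, 0 with normexp (10 at an unadjusted p under 0.05 in limma), 0 in a fit of the 6 arrays (16), 18 with array weights, 10 with slide as a random block, 0 with slide as a fixed block (34), 12 with a floor of 1 unit and 38 without adjustment, and it ranged from 0 to 13 with each array left out. The share outside 0.8-fold to 1.2-fold, 46.9%, became 86.7% without scaling, 93.8% with the percentile over all probes, 72.7% with normexp, 52.3% with the software's gene signal, 56.2% in the deposited table, 42.5% for miRNAs detected on all arrays and 3.12% with limits of 0.5 and 2, and ranged from 37.2% to 52.7% with each array left out. Against 6 h the count was 1 with quantile normalization and 0 to 3 with each array left out. Against 24 h it was 1 with quantile normalization, 1 in the deposited table, 0 in a fit of those groups only (9 at an unadjusted p under 0.05) and 0 to 11 with each array left out. Against 36 h it was 4 in the deposited table, 2 with slide as a random block, 1 in a fit of those groups only and 1 to 16 with each array left out. Against 2/3 PH at 12 h it was 0 in each setting run.

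Among the named miRNAs some differences changed sign, and the cause was not tested. Without scaling miR-34a was at −0.12, miR-335 at −0.16, miR-1224 at −0.39 and miR-23b at −0.42. With the percentile over all probes miR-34a was at −0.43, miR-702-3p at −0.066, miR-3085 at −0.16, miR-2985 at −0.23, miR-335 at −0.46, miR-1224 at −0.69 and miR-23b at −0.73, and with quantile normalization miR-335 was at −0.044. With normexp miR-142-3p was at 0.35, miR-148b-3p at 0.59, miR-151 at 0.088, miR-28 at 0.51, miR-338 at 0.61, miR-378* at 0.50 and miR-30e at 0.32. With the software's gene signal miR-148b-3p was at 0.029 and miR-338 at 0.13.

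Leaving m5m out only where it was at its floor, chosen after seeing the data, gave 6 calls, 1 higher and 5 lower. Signals near the floor limit what can be said of dim miRNAs. No paired analysis was possible because each array came from a different rat.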

Other observations

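A few miRNAs, chosen after their values were seen, varied widely among animals of the same group. The signal of miR-466b was 79.5, 12.9 and 18.99 units in normal 1 to 3 and 35.6, 107 and 91.1 units in m2, m5m and m6 (log2 difference 1.39, SE 0.594, adjusted p = 0.134 in limma). For miR-3588 the normal livers read 279, 64.3 and 112 units and m2, m5m and m6 read 127, 30.1 and 230 units. For miR-202* they read 101, 60.4 and 93.5 units against 66.3, 25.6 and 155.4 units. For miR-212 they read 104, 44.4 and 107 units against 65.3, 24.3 and 174 units, with m5m at its floor. In the last 3, normal 2 was the lowest normal liver and m5m the lowest liver after 1/3 PH, and these arrays shared a slide and a scan day, whose part in the result was not tested.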
